A study of Homo sapiens with 36 samples.

Results

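The comparison described here was cisplatin after GSK-J4 in 2102EP-C1 cells: 3 libraries from cells given GSK-J4 and then cisplatin (the combination) against 3 libraries from cells given GSK-J4 alone, 6 of the 36 libraries of the study, over all 17035 genes of the table that held them. 2102EP-C1 is a cisplatin-resistant clone of 2102EP, a human embryonal carcinoma line from a testicular germ cell tumor (TGCT), so these groups came from 1 clone. GSK-J4, a small-molecule inhibitor of the histone demethylases KDM6A and KDM6B, was given at 1 µM for 3 days. Cisplatin was given at 0.5 µM for 6 h, and RNA was taken 24 h later. The same experiment held 3 libraries of untreated control cells and 3 of cells given that cisplatin dose without GSK-J4, which served to test whether the cisplatin effect differed with pretreatment. Cisplatin effects are also set beside those in 2102EP-C1 cells in which both demethylases were knocked down with short hairpin RNAs (labelled sh6A+6B, 3 libraries with and 3 without the same cisplatin treatment) and in NT2/D1-A4, a resistant line derived from another embryonal carcinoma line (3 combination and 3 GSK-J4 libraries at the same doses). The study calls the libraries of a group biological replicates, without saying how the cultures were separated. The p-values rest on the spread between libraries of a group. For each gene that spread was pooled over the groups of the experiment and drawn toward that of genes at similar levels. The weights were 8 residual and 18 prior degrees of freedom, so a gene's own spread counts only in part.

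Cisplatin binds to DNA and crosslinks it. In cells with working p53, which germ cell tumors usually keep, such damage stabilizes this transcription factor, and p53 then induces genes for its own feedback, cell cycle arrest, DNA repair, and cell death. KDM6A and KDM6B remove trimethylation from lysine 27 of histone H3, the mark that polycomb complexes place on silenced developmental genes.

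The 6 libraries compared held 30250275 to 40370890 counted reads. All 11 embryonal carcinoma markers were in the table, with a summed level of 10336 to 10457 CPM (read counts scaled to a common library size) in the GSK-J4 libraries and 9203 to 9767 CPM in the combination libraries. Markers of other cell types were low or not listed. The sum was 1.82 to 2.44 CPM over the 6 libraries for yolk sac and endoderm (2 of 7 listed), 6.78 to 10.9 CPM for trophoblast (2 of 5), 13.8 to 15.8 CPM for mesoderm (3 of 4), 16.0 to 18.4 CPM for endothelium (3 of 3), and 1.94 to 2.63 CPM for immune cells (2 of 4, with PTPRC and CD3E not listed). The fibroblast sum was 84.5 to 91.0 CPM with GSK-J4 and 94.3 to 103 CPM with the combination (3 of 6, with COL3A1, DCN, and LUM not listed), and the neural sum, from DCX alone of 4 markers, was 7.42 to 7.73 and 5.84 to 6.63 CPM. In bulk RNA, fewer cells of a type and less RNA per cell cannot be told apart.

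One library stood apart from its group. The third GSK-J4 library shared with all 3 combination libraries a trend with the GC content of the transcript that the other 8 libraries lacked. Relative to the control mean, these 4 libraries were lower in the eighth of genes with the most GC, by medians of -0.22 to -0.25 on the log2 scale, and higher in the eighth with the least GC, by 0.10 to 0.11. The first and second GSK-J4 libraries had medians of -0.02 and 0.01 in the GC-richest eighth. Results are therefore also given with the GC trend of each library removed and against the third GSK-J4 library alone. The first combination library was the most extreme of its group for many of the genes described, and the genes that lose their call without it are named as such. The part of the GC trend in any 1 result was not tested beyond these values.

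**Figure D1:**
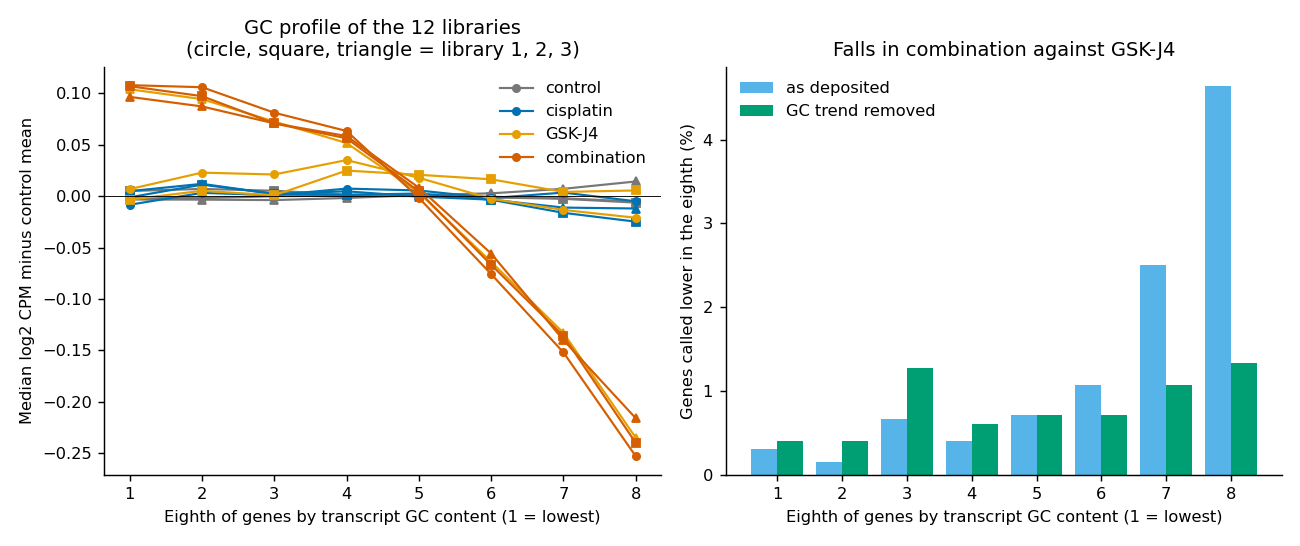
The left panel plots the median log2 CPM minus the control mean in 8 equal groups of genes ordered by GC content of the transcript, with 1 line per library. The third GSK-J4 library (yellow triangles) runs with the 3 combination libraries, down to between -0.22 and -0.25 in the GC-richest group, and the right panel plots the percent of genes in each group called lower in the combination, 4.64% in the GC-richest group as deposited and 1.33% with the GC trend removed.

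After GSK-J4, cisplatin changed 379 of the 17035 genes (2.22%): 156 rose (0.916%) and 223 fell (1.31%), with a median log2 fold change of 0.53 for the rises and -0.52 for the falls. A gene was counted when its fold change was over 1.3 (0.379 on the log2 scale) and its p in limma-trend, adjusted by Benjamini-Hochberg (BH), was under 0.05. The test is moderated and ran on the deposited log2 CPM values. The 2 groups of 3 libraries did not overlap for many genes, with the combination higher for 13.7% of all genes and lower for 12.4%. The rises included 22 p53 targets. The falls included glycolytic enzymes, sterol and fatty acid synthesis genes, and the NODAL inhibitors LEFTY1 and LEFTY2. The falls had a median transcript GC of 59.1%, against 45.6% for the rises and 47.8% for all genes. With the GC trend removed over the 15689 genes with a GC value, 151 genes rose (0.962%) and 128 fell (0.816%). Of the 135 rises and 205 falls with a GC value, 104 and 105 were called the same way there. Against the third GSK-J4 library alone, 82 rose (0.481%) and 34 fell (0.2%), and these included 49 of the 156 rises and 23 of the 223 falls. Without the first combination library, 68 rose and 96 fell. Leaving out the third GSK-J4 library gave 233 rises and 492 falls.

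Cisplatin without GSK-J4 changed 182 genes (1.07%), of which 150 rose (0.881%) and 32 fell (0.188%). Of these 150 genes, 60 (40%) also rose after GSK-J4, which is 38.5% of the 156 rises there, and 135 had a higher mean. Their median log2 fold change was 0.51 without and 0.34 after GSK-J4, and the 150 genes had been selected on the first of these values. In the test of the difference between the cisplatin effects, 11 of the 150 had a smaller effect after GSK-J4 and 0 a larger one. The 150 genes were selected on the effect that this test subtracts, which favors a smaller effect. These counts therefore cannot show a weaker response. Of the 32 genes that cisplatin alone lowered, 1 fell after GSK-J4, and the median was -0.52 without and 0.04 after it. These 32 were likewise selected on the first value, and 13 of them were mitochondrially encoded transcripts. Over all genes, the difference passed the thresholds for 146 (0.857%): 33 (0.194%) with a more positive and 113 (0.663%) with a more negative cisplatin effect after GSK-J4. With the GC trend removed, the difference passed for 117 genes, and against the third GSK-J4 library alone for 45. Leaving out 1 library gave between 59 (without the first GSK-J4 library) and 447 (without the third GSK-J4 library), and 64 without the first combination library. In limma without the intensity trend, it passed for 0 genes, with 2474 at an unadjusted p under 0.05 and a smallest adjusted p of 0.0631.

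**Figure D2:**
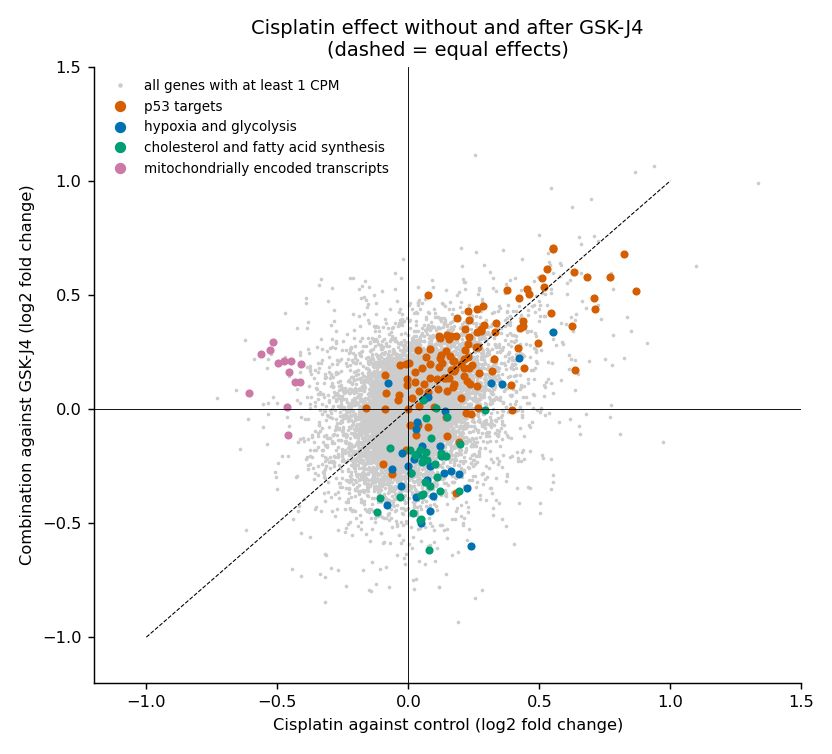
Each point is a gene with a mean of at least 1 CPM, placed by its log2 fold change with cisplatin alone (x axis) and with cisplatin after GSK-J4 (y axis), and the dashed line marks equal effects. Most p53 targets (orange) are above 0 on both axes, most hypoxia and glycolysis genes (blue) and cholesterol and fatty acid genes (green) are below 0 on the y axis, and the 13 mitochondrially encoded transcripts (pink) are all below 0 on the x axis, with 12 of them above 0 on the y axis.

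Part of the p53 targets rose with cisplatin, both with and without GSK-J4. Of 128 targets measured, 22 rose (17.2%, beside 0.916% of all genes) and 0 fell after GSK-J4, and 25 rose and 0 fell with cisplatin alone. The list median was a log2 fold change of 0.20 after GSK-J4 and 0.19 without it, beside 0.0066 and -0.0022 over all genes. In limma-trend, 0 of the 128 passed the test of the difference, whose list median was 0.01. By adjusted p alone (under 0.05, any fold), 73 were higher and 4 lower after GSK-J4, beside 7.64% and 8.1% of all genes. After removal of the GC trend, 28 rose and 0 fell (median 0.20). Against the third GSK-J4 library alone, 20 rose (median 0.23), and without the first combination library, 12 rose (median 0.17).

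Among the feedback and arrest genes, 5 of 24 rose (20.8%, beside 0.916% of all genes). Gene positions are those of RefSeq in GRCh38.p14. BTG2 (gene ID 7832, chr1:203305519-203309602), an antiproliferative gene, was at 4.80, 4.62, and 4.60 log2 CPM in the GSK-J4 libraries and at 5.67, 5.30, and 5.16 in the combination libraries. The groups did not overlap, and the log2 fold change was 0.71 (SE 0.09, adjusted p 6e-06, limma-trend, BH). Its cisplatin effect without GSK-J4 was 0.55, and the difference of the effects was 0.15 (95% confidence interval -0.10 to 0.40). CDKN1A (gene ID 1026, chr6:36676463-36687332), which encodes the cyclin-dependent kinase inhibitor p21, was at 5.39, 5.36, and 5.18 with GSK-J4 and at 5.82, 5.63, and 5.64 with the combination. All 3 combination libraries were higher, by 0.39 in the means (SE 0.05, adjusted p 3.5e-05). This was just over the fold limit, and CDKN1A was under it without the first combination library (0.32) or without the third GSK-J4 library (0.32). PLK2, a kinase that acts in the centrosome cycle, rose by 0.49 (SE 0.04) and TP53INP1, a p53 cofactor, by 0.50 (SE 0.06). SESN1, a stress-responsive regulator of mTORC1, had a log2 fold change of 0.27 (SE 0.03, adjusted p 9.3e-06), under the fold limit.

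Among the cell death genes, 3 of 24 rose (12.5%, beside 0.916% of all genes). FAS (gene ID 355, chr10:88964050-89017059), a death receptor, was at 3.14, 3.29, and 3.29 log2 CPM with GSK-J4 and at 4.03, 3.79, and 3.76 with the combination, a log2 fold change of 0.61 (SE 0.08, adjusted p 2.6e-05). The groups did not overlap, and the cisplatin effect without GSK-J4 was 0.53. PMAIP1, which encodes the BH3-only death protein NOXA, rose by 0.43 (SE 0.05) after GSK-J4 and had a log2 fold change of 0.23 without it, and the difference of 0.20 did not pass the test (adjusted p 0.092, interval 0.07 to 0.34). It was under the fold limit without the first combination library (0.36), with the GC trend removed (0.35), and against the third GSK-J4 library alone (0.34). SPATA18, a regulator of mitochondrial quality, rose by 0.60 (SE 0.09).

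Of the 7 DNA repair and nucleotide supply targets, 0 passed both thresholds in limma-trend or in voom on the recovered reads, though 7 of 7 were higher and 6 had an unadjusted p under 0.05. With the GC trend removed, 1 of the 7 rose. DDB2, a damage recognition subunit of nucleotide excision repair, had a log2 fold change of 0.36 (SE 0.04, adjusted p 3.9e-06), and RPS27L had 0.32. Of the 18 targets in metabolism and autophagy, 4 rose (22.2%, beside 0.916% of all genes). FDXR, a mitochondrial ferredoxin reductase, rose by 0.58 (SE 0.06), and DRAM1, an autophagy regulator, by 0.53 (SE 0.05). CPE and ACER2 rose by 0.45 and 0.39 and were under the fold limit without the first combination library. ACER2 also lost its call in limma without the intensity trend. Of the 55 targets with roles in signaling, the cytoskeleton, or elsewhere, 10 rose (18.2%). DGKA (gene ID 1606, chr12:55927316-55954023), a diacylglycerol kinase, was at 4.56, 4.50, and 4.50 with GSK-J4 and at 5.30, 5.18, and 5.12 with the combination, a log2 fold change of 0.68 (SE 0.06, adjusted p 1.4e-07). Every combination library was above every GSK-J4 library, and the effect without GSK-J4 was 0.82. KITLG, the ligand of the germ cell receptor KIT, rose by 0.57 (SE 0.05), EPS8L2 by 0.58 (SE 0.06), and ANXA1, a phospholipid-binding annexin, by 0.53 (SE 0.06).

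**Figure D3:**
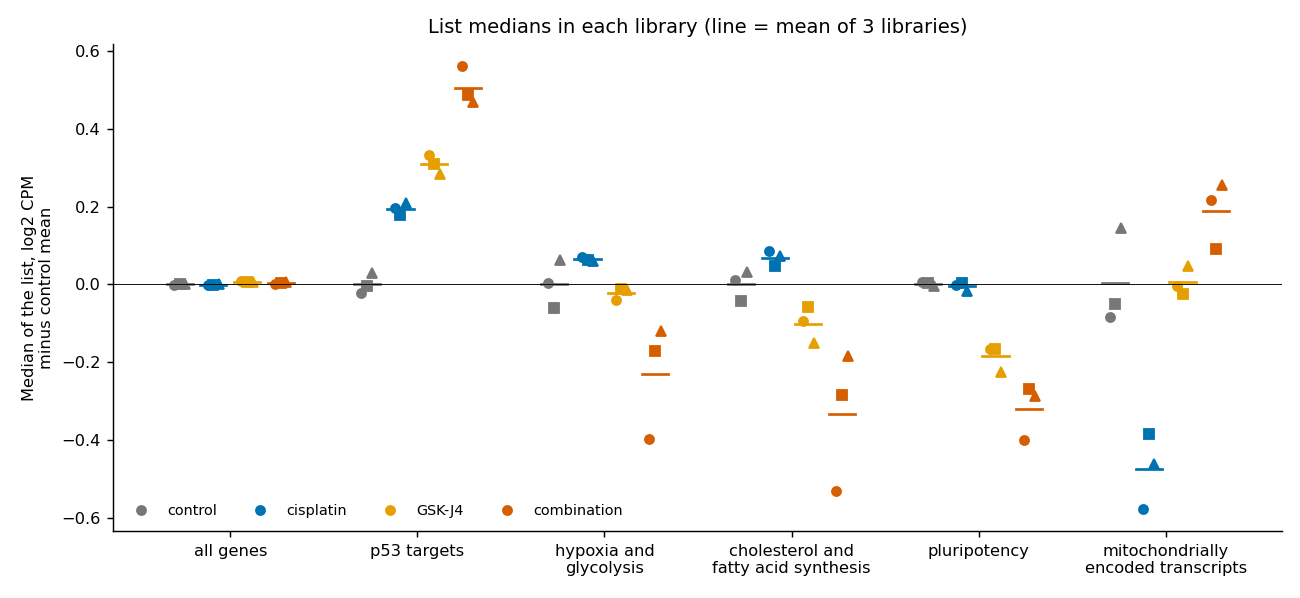
Each point is the median of a gene list in 1 library, in log2 CPM minus the control mean, for all genes and 5 lists; circles, squares, and triangles are libraries 1, 2, and 3, and lines are means of the 3 libraries. The p53 median was 0.28 to 0.33 in the GSK-J4 libraries and 0.47 to 0.56 in the combination libraries, and the hypoxia and glycolysis median was -0.04 to -0.01 with GSK-J4 and -0.40, -0.17, and -0.12 in combination libraries 1, 2, and 3.

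Some genes of glycolysis and the hypoxia response fell after GSK-J4. The transcription factor HIF1 is known to drive these genes, among them glucose transporters, glycolytic enzymes, and lactate dehydrogenase. Of 31 measured, 6 fell (19.4%, beside 1.31% of all genes) and 0 rose, 24 of 31 were lower, and the median log2 fold change was -0.25. With cisplatin alone, 2 rose and 0 fell (median 0.07). The test of the difference passed for 10 of the 31, all toward a lower value after GSK-J4, beside 0.663% of all genes in that direction. Removing the GC trend left 4 that fell and 1 that rose (median -0.19), and against the third GSK-J4 library alone 2 fell (median -0.18). Without the first combination library, 0 of the 31 passed both thresholds, and the median was -0.16.

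LDHA (gene ID 3939, chr11:18394563-18408425), which encodes the lactate dehydrogenase subunit that favors making lactate from pyruvate, was at 10.79, 10.78, and 10.82 log2 CPM in the GSK-J4 libraries and at 9.91, 10.42, and 10.57 in the combination libraries. All 3 combination libraries were lower, the first by the most, and the log2 fold change was -0.50 (SE 0.08, adjusted p 0.00023, limma-trend, BH). The cisplatin effect without GSK-J4 was 0.05, and the difference of the effects was -0.54 (adjusted p 0.014). BNIP3 (gene ID 664, chr10:131967684-131981923), a mitophagy receptor, was at 7.67, 7.65, and 7.61 with GSK-J4 and at 6.83, 7.29, and 7.46 with the combination, a log2 fold change of -0.45 (SE 0.08, adjusted p 0.0007). Its first combination library was again the lowest. HK2, the hexokinase of the first step of glycolysis, had a log2 fold change of -0.39 (SE 0.05), and ALDOC, an aldolase, -0.38 (SE 0.07), and both fell. In limma without the intensity trend, LDHA, BNIP3, and ALDOC lost the call. Without the first combination library, LDHA (-0.31), BNIP3 (-0.27), HK2 (-0.28), and ALDOC (-0.25) were under the fold limit (HK2 also without the third GSK-J4 library, at -0.37), with adjusted p-values of at most 0.0069. SLC2A1, the glucose transporter GLUT1, had a log2 fold change of -0.29 after GSK-J4 and 0.19 without it, and the difference of -0.48 passed the test (adjusted p 0.00042).

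**Figure D4:**
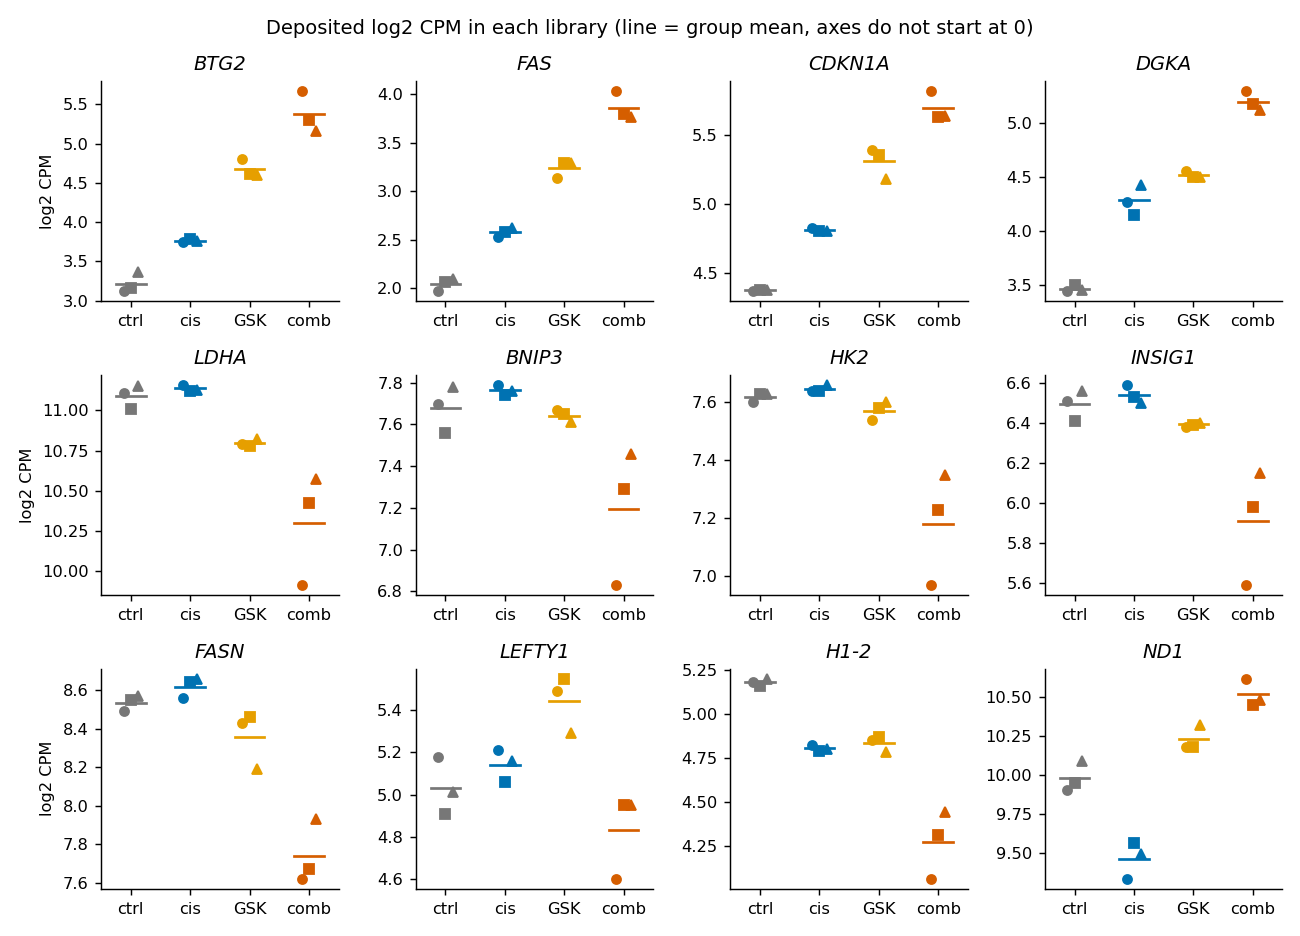
The deposited log2 CPM of 12 genes is plotted for each library (circle, square, and triangle for libraries 1, 2, and 3; line for the group mean; ctrl, cis, GSK, and comb for control, cisplatin, GSK-J4, and combination), on axes that do not start at 0. The means of BTG2, FAS, CDKN1A, and DGKA step up from control to combination, whereas LDHA, BNIP3, HK2, INSIG1, and FASN are lowest in the combination, with its first library the lowest in each of these 5 genes.

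The promoters of LDHA and BNIP3 are shown because both genes fell and both windows hold the core of the element that HIF1 binds. The windows run from 250 bases before to 50 bases after the start of the gene in RefSeq (GRCh38.p14), read 5′ to 3′ on the gene's strand, and capitals mark every ACGTG on either strand, which reads CACGT where it lies on the other one. That motif was chosen after the values had been seen. The LDHA window is chr11:18394313-18394612 on the plus strand and the BNIP3 window chr10:131981874-131982173 on the minus strand.
LDHA: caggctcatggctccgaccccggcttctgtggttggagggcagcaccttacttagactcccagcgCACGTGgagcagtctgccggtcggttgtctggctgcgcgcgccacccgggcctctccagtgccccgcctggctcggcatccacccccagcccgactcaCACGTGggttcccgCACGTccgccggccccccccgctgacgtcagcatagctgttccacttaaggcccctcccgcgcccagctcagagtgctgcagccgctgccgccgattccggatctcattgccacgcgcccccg
BNIP3: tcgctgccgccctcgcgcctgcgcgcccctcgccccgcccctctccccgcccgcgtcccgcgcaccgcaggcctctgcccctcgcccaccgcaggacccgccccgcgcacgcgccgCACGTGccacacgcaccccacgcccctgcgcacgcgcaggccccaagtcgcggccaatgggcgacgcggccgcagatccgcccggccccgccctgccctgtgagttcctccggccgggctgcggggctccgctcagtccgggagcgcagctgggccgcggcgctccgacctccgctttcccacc
ACGTG was in 11 of the 27 windows of hypoxia and glycolysis genes (40.7%), beside 25.7% of all 12821 windows, and in 21.7% of the 152 windows of falls. CCAAT was in 46.1% of the windows of falls, 28.3% of the 120 windows of rises, and 36.4% of all windows. TATAAA was in 12.5% of the windows of rises, 7.24% of the falls, and 6.59% of all, and TTTGAA or TTCGAA was in 16.7%, 13.8%, and 11.9%. A full p53 response element with a spacer of at most 13 bases was in 0 of the 120 windows of rises and in 5 of all 12821. All motifs were searched on both strands, and a match is a description of the letters only.

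Some genes of cholesterol and fatty acid synthesis also fell. The transcription factors SREBP1 and SREBP2 are known to drive them when sterols are low. Of 34 measured, 7 fell (20.6%, beside 1.31% of all genes) and 0 rose, and 32 of 34 were lower. The median log2 fold change was -0.23, beside 0.06 with cisplatin alone. The difference passed for 10, all toward lower values after GSK-J4, beside 0.663% of all genes in that direction. Once the GC trend was removed 5 fell (median -0.24), against the third GSK-J4 library alone 2 fell (median -0.18), and without the first combination library 2 fell (median -0.15). FASN (gene ID 2194, chr17:82078338-82098236), the fatty acid synthase, was at 8.43, 8.46, and 8.19 log2 CPM with GSK-J4 and at 7.62, 7.67, and 7.93 with the combination. The groups did not overlap, and the log2 fold change was -0.62 (SE 0.06, adjusted p 2.7e-07), or -0.46 with the GC trend removed. INSIG1, which holds SREBP in the endoplasmic reticulum, was at 6.38, 6.39, and 6.40 with GSK-J4 and at 5.59, 5.98, and 6.15 with the combination, a log2 fold change of -0.48 (SE 0.07, adjusted p 9.9e-05). DHCR7, the enzyme of a last step of cholesterol synthesis, fell with a log2 fold change of -0.48 (SE 0.06), as did MVK, the mevalonate kinase (-0.45, SE 0.09) and SREBF1, the gene for SREBP1 (-0.39, SE 0.07). Of these, INSIG1, MVK, and SREBF1 were under the fold limit without the first combination library, and SREBF1 (-0.25) and MVK (-0.36) were under it with the GC trend removed.

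Of the 13 protein-coding transcripts of the mitochondrial genome, 12 differed in their cisplatin effect with and without GSK-J4. All 13 fell with cisplatin alone (median log2 fold change -0.46). After GSK-J4, 0 passed both thresholds in limma-trend or in voom, 12 were higher, and the median was 0.20, with 10 at an unadjusted p and 8 at an adjusted p under 0.05. All 12 differences were upward, beside 0.194% of all genes that passed in that direction. None of the 12 passed in limma without the intensity trend, where 0 genes did. ND1, a complex I subunit, was at 9.90, 9.95, and 10.09 log2 CPM in controls, 9.33, 9.56, and 9.49 with cisplatin, 10.18, 10.18, and 10.32 with GSK-J4, and 10.62, 10.45, and 10.48 with the combination. The cisplatin libraries were below all others, and the combination libraries above all others. The cisplatin effect was -0.52 without and 0.29 after GSK-J4, a difference of 0.81 (SE 0.07, adjusted p 3.3e-07). CYTB, the cytochrome b of complex III, differed by 0.68 and ND4 by 0.66. No GC value was used for these transcripts, so the GC trend was not removed for them, and against the third GSK-J4 library alone the list median was 0.09. Reads may be shared with nuclear copies of mitochondrial DNA. The 79 nuclear-encoded genes of the respiratory chain had a median of -0.02 after GSK-J4, with 0 called by limma-trend or voom (28 at an unadjusted p under 0.05, 8 of them higher).

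Of 29 pluripotency genes, 6 fell (20.7%, beside 1.31% of all genes) and 0 rose. The median was -0.11, beside 0.0065 with cisplatin alone. LEFTY1 (gene ID 10637, chr1:225886282-225889146), an inhibitor and target of NODAL signaling, was at 5.49, 5.55, and 5.29 with GSK-J4 and at 4.60, 4.95, and 4.95 with the combination, a log2 fold change of -0.61 (SE 0.08, adjusted p 9e-06). The groups did not overlap. Its log2 fold change with cisplatin alone was 0.11, and the difference was -0.72 (adjusted p 0.00051). LEFTY2, its close paralog, had -0.46 (SE 0.10), and reads of the pair may be shared. DPPA5, a germ and stem cell gene, fell with a log2 fold change of -0.53 (SE 0.12), and ESRRB, an orphan nuclear receptor, with -0.39 (SE 0.10). With the GC trend removed, 2 of the 29 fell and 1 rose, against the third GSK-J4 library alone 1 fell, and without the first combination library 2 fell. LEFTY2 (-0.30) and ESRRB (-0.27) lost the call without that library, and also in limma without the intensity trend. POU5F1, which encodes OCT4, was at 9.50, 9.54, and 9.38 with GSK-J4 and at 9.47, 9.46, and 9.46 with the combination, groups that overlap (log2 fold change -0.01, 95% interval -0.08 to 0.06, and 0.08 against the third GSK-J4 library alone). DNMT3B, the DNA methyltransferase, had a log2 fold change of -0.34 (SE 0.04, adjusted p 3e-06), under the fold limit. Among 25 lineage markers, the mesodermal factors MSX2 (0.44, SE 0.08) and HAND1 (0.42, SE 0.14) rose (8%, beside 0.916% of all genes) and 0 fell. Both lost the call without the first combination library, and also in limma without the intensity trend. Of 36 further homeobox genes (MSX2 was counted with the lineage markers), 0 passed both thresholds in limma-trend or voom, with 8 at an unadjusted p under 0.05.

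Of the 30 replication-dependent histone genes measured, 3 fell (10%, beside 1.31% of all genes) and 0 rose. The median was -0.18 after GSK-J4 and -0.19 with cisplatin alone. H1-2, a linker histone, was at 4.85, 4.87, and 4.78 with GSK-J4 and at 4.06, 4.31, and 4.44 with the combination, a log2 fold change of -0.56 (SE 0.06, adjusted p 3e-06). H1-5 (-1.09, SE 0.29) and H2BC18 (-0.95, SE 0.30) rested on 5 to 17 and 3 to 13 reads per library, and H2BC18 lost the call without the first combination library (-0.93, adjusted p 0.078). Both lost the call in limma without the intensity trend. Most such transcripts lack a poly(A) tail while the library kit selects for one, and near-identical copies can share reads. Against the third GSK-J4 library alone the list median was 0.02. Of 18 genes of platinum uptake, export, and binding, 2 fell (11.1%, beside 1.31% of all genes) and 0 rose, with 15 lower and 3 higher. These 2 were the metallothioneins MT1X (-0.45, SE 0.06) and MT1G (-0.38, SE 0.05), metal-binding proteins of a family of close copies. Their relatives MT1E, MT1F, MT1M, and MT2A were not called. Both MT1X and MT1G were under the fold limit without the first combination library. MT1G also lost its call in voom and with the GC trend removed. Among 19 imprinted genes, H19 (-0.44) and MAGEL2 (-0.40) fell (10.5%, beside 1.31% of all genes). With the GC trend removed both were under the fold limit (-0.30 and -0.28), as was MAGEL2 without the first combination library (-0.31). H19 also lost its call in limma without the intensity trend. SDF2L1 (-0.49) was the 1 of 20 unfolded protein response genes that fell (5%), and it was also under the limit with the GC trend removed (-0.33).

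Of 49 genes of the integrated stress response, 1 rose (2.04%, beside 0.916% of all genes) and 0 fell after GSK-J4, with a median of 0.12. By adjusted p alone, 23 were higher and 2 lower, beside 7.64% and 8.1% of all genes. ALDH1L2, a mitochondrial folate enzyme, was at 4.28, 4.22, and 4.09 with GSK-J4 and at 4.69, 4.57, and 4.48 with the combination and rose by 0.38 (SE 0.08, adjusted p 0.0023). It was under the limit without the first combination library (0.33) and with the GC trend removed (0.33). The call was also lost in limma without the intensity trend. The cystine transporter SLC7A11 had a log2 fold change of 0.34 after GSK-J4 and -0.11 without it, and CEBPG, a C/EBP transcription factor, had 0.26 and -0.18. Both differences passed the test (0.45, adjusted p 0.00081, and 0.43, adjusted p 0.003).

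Several groups that bear on the response to DNA damage held 0 genes past both thresholds in limma-trend, and in voom. Genes of the p53 list were not counted in these groups. Over all genes, 29.3% had an unadjusted p under 0.05. Of 49 genes of crosslink, excision, and translesion repair, 16 had an unadjusted p under 0.05, 8 of them higher (median 0.0015). Of 20 checkpoint genes, 8 did, 3 of them higher (median -0.02), and of 81 cell cycle genes 32 did, 14 of them higher (median -0.02). CDK1, the mitotic kinase, had a log2 fold change of 0.22 (SE 0.04) and MKI67, the proliferation marker, -0.26 (SE 0.05). Of 25 BCL2 family and caspase genes, 9 had an unadjusted p under 0.05, 8 of them higher (median 0.08). With the GC trend removed, 1 of the 25 rose. The family members BAX, BBC3, and PMAIP1 were counted with the p53 targets instead, where PMAIP1 rose. The BH3-only gene BMF had a log2 fold change of 0.37 (SE 0.10, adjusted p 0.014), CASP10, an initiator caspase, had 0.28 (SE 0.06), and BCL2L1, which encodes the survival protein BCL-XL, had 0.14 (SE 0.04).

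Of 135 chromatin modifiers, 46 were higher and 89 lower after GSK-J4 (median -0.04). By adjusted p alone, 4 were higher and 27 lower, beside 7.64% and 8.1% of all genes. Past both thresholds, 1 rose (0.741%, beside 0.916% of all genes) and 0 fell. That gene was SETDB2, a lysine methyltransferase, at 0.64, 0.57, and 0.45 with GSK-J4 and at 1.36, 0.93, and 0.98 with the combination (log2 fold change 0.54, SE 0.17, adjusted p 0.03). It lost the call with the GC trend removed (adjusted p 0.058) and without the first combination library (adjusted p 0.19). The call was also lost in limma without the intensity trend. Of the enzymes that GSK-J4 inhibits, KDM6A had 0.04 (interval -0.03 to 0.11, and -0.04 with the GC trend removed) and KDM6B -0.03 (interval -0.17 to 0.10, and 0.10 with the trend removed), and the groups overlapped for both. KDM3A, a demethylase of histone H3 lysine 9, had a log2 fold change of -0.23 (SE 0.04, adjusted p 0.00081). Medians were -0.06 for 54 splicing factors, 0.02 for 86 cytosolic and -0.0029 for 76 mitochondrial ribosomal proteins, -0.03 for 17 heat shock genes, 0.06 for 31 autophagy and lysosome genes, 0.07 for 34 adhesion and matrix genes, -0.02 for 32 NODAL, BMP, and WNT signaling genes, 0.05 for 31 interferon and antigen presentation genes, -0.10 for 24 immediate early genes, and 0.01 for 11 NF-kB and cytokine genes. In these lists 0 genes passed both thresholds by limma-trend or voom on the values as deposited. With the GC trend removed, 1 adhesion and matrix gene, 1 NODAL, BMP, and WNT gene, and 1 interferon and antigen presentation gene rose. LEFTY1 and LEFTY2 were counted with the pluripotency genes and not with NODAL signaling. The share at an unadjusted p under 0.05 ran from 1 of 11 NF-kB and cytokine genes to 16 of 34 adhesion and matrix genes.

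The largest changes among genes of at least 1 CPM lay mostly in weakly expressed genes. The 8 largest rises were IP6K3, LOC105378644, HES2, EBI3, TNFSF8, LINC02086, CSMD3, and CXCL14, with log2 fold changes from 1.11 to 0.76. HES2 (gene ID 54626, chr1:6415232-6419919), a transcription factor of the HES family, was at 0.81, 0.57, and 0.45 log2 CPM with GSK-J4 and at 1.78, 1.56, and 1.60 with the combination, a log2 fold change of 1.04 (SE 0.15, adjusted p 5.6e-05). It also rose with cisplatin alone (0.87, adjusted p 0.00078). EBI3, a cytokine subunit of the interleukin family, rose by 0.99 (SE 0.21), TNFSF8, the ligand of CD30, by 0.97 (SE 0.15), and CXCL14, a chemokine, by 0.76 (SE 0.14). IP6K3 (SE 0.29) rested on 14 to 68 reads per library and lost the call in limma without the intensity trend. Against the third GSK-J4 library alone, TNFSF8, LINC02086, CSMD3, and CXCL14 lost the call.

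The 8 largest falls were SLC16A3, LRRC10B, RTBDN-AS1, SLC33A2, ACTL8, MOSPD3, CELF5, and INSYN1, with log2 fold changes from -0.93 to -0.78. SLC16A3 (gene ID 9123, chr17:82217934-82240086), the lactate exporter MCT4, was at 4.11, 4.3, and 3.75 with GSK-J4 and at 2.57, 3.12, and 3.68 with the combination. The third library of each group lay nearest to the other group, and the fold change (SE 0.17, adjusted p 0.00044) was -0.65 without the first combination library. Its difference of the cisplatin effects was -1.12 (adjusted p 0.012). ACTL8, an actin-like cancer-testis gene, had a log2 fold change of -0.79 (SE 0.15) and kept its call against the third GSK-J4 library alone (-0.90), where the other 7 lost theirs. LRRC10B (-0.60, adjusted p 0.056) and RTBDN-AS1 (-0.53, adjusted p 0.15) lost the call without the first combination library. Both of these and SLC16A3 lost the call in limma without the intensity trend. RTBDN-AS1 is an antisense gene, and the strand setting of the counting was not given, so its reads may include those of its partner.

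The called genes differed from all genes in span as well as GC. The median log2 fold change ran from -0.05 in genes under 5 kb to 0.05 in genes over 200 kb, and the share that fell was 2.17% and 0.544% in these bins, which also differed in GC content (median 53.3% and 44.5%). With the GC trend removed, the medians were -0.02 and 0.02, and with cisplatin alone they were -0.03 and 0.07. Long noncoding RNAs were 31 of the 156 rises (19.9%), 29 of the 223 falls, and 12.2% of all genes. Among genes with a GC value, they were 11 of the 135 rises (8.15%) and 6.29% of all, and with the GC trend removed 8 of the 151 rises (5.30%). They were 8 of the 150 rises with cisplatin alone (5.33%).

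In sh6A+6B cells, cisplatin changed 579 of 16459 genes (3.52%), and raised 408 (2.48%) and lowered 171 (1.04%). That table had its own normalization, so no test was made between the experiments. Its sh6A+6B libraries held 79382033 to 94476254 counted reads, more than the 6 libraries compared here. They also had GC trends relative to cells with the empty vector. The log2 slopes per 10 GC points were -0.111 to -0.0518 without and -0.149 to -0.0973 with cisplatin. Counts in this paragraph are without removal of the GC trend. Of the 386 sh6A+6B rises that both tables held, 75 (19.4%) rose after GSK-J4, which is 50.7% of the rises there that both tables held. Of the 166 falls, 2 (1.2%) fell after GSK-J4, or 0.948% of the falls there. The p53 list, with 128 genes measured, had 36 rises and a median of 0.21 in sh6A+6B cells, beside rises of 2.48% of all genes. Of the 135 chromatin modifiers, 5 fell and 0 rose in those cells (median -0.14), beside falls of 1.04% of all genes. The hypoxia and glycolysis list had a median of 0.03 in sh6A+6B cells, the cholesterol and fatty acid list 0.0067, and the mitochondrially encoded transcripts -0.14, each with 0 genes past both thresholds in limma-trend. In NT2/D1-A4 cells, cisplatin after GSK-J4 changed 62 of 16431 genes (0.377%), and raised 26 (0.158%) and lowered 36 (0.219%). The GC slopes relative to untreated NT2/D1-A4 cells were -0.0721 to 0.0423 in the combination and -0.00968 to -0.00214 in the GSK-J4 libraries. The 156 rises and 223 falls of 2102EP-C1 cells had medians of 0.24 (140 measured, 9 of them raised) and -0.04 (198 measured, 2 of them lowered) there.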

How the data were processed

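Per the study's methods, the authors prepared stranded poly(A) libraries, trimmed reads, used STAR for alignment to GRCh38.p14 and featureCounts for gene counts, removed low genes, and TMM-normalized the rest; tool versions and the strand setting of the counting were not given in the sources used here. The values deposited by the authors are log2 CPM (read counts scaled to library size), and whole reads could be recovered from them with a prior count of 3. Groups came from the sample titles. All 12 libraries of the experiment entered 1 fit (limma 3.58.1 in R 4.3.3, intensity trend, BH adjustment over 17035 genes), with contrasts for cisplatin after GSK-J4, cisplatin alone, and their difference, each tested on log2 CPM as deposited, and checked on simulated data. Calls required an adjusted p under 0.05 together with a fold change over 1.3, and fold changes of low genes are understated by the prior count. Transcript GC content was that of the longest GENCODE transcript of each gene, for 15689 genes (92.1%). Its trend was removed per library with a spline. The members and gene lists were chosen with earlier results of these data known. Genes named were the 8 largest called changes per direction at 1 CPM or more whose groups did not overlap, the called members of 28 lists by role (up to 4 per direction by adjusted p, or up to 2 members with the lowest p where none was called), genes the study names, and the 5 genes per direction with the lowest adjusted p in the difference. Python 3.11.15 drew the figures. Depth was 30250275 to 53645086 reads per library, and errors cover the spread between 3 libraries per group only.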

Additional observations from a re-analysis of the deposited data

Results flagged for a closer look

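The cisplatin effect differed between cells with and without GSK-J4 for 146 genes by the interaction test in limma-trend (BH adjusted p under 0.05, fold over 1.3). The count was 0 without the intensity trend (smallest adjusted p 0.0631) and ran from 59 to 447 when 1 library was left out. Among the 5 genes with the lowest adjusted p in each direction, the effect on the log2 scale was higher after GSK-J4 by 0.81 for ND1, 0.80 for ATP8, 0.79 for ND2, 0.68 for CYTB, and 0.66 for ND4, all mitochondrially encoded. The difference was -0.72 for LEFTY1, -0.72 for ADAMTS1, a secreted metalloproteinase, -0.70 for FASN, -0.55 for FBN2, a fibrillin, and -0.48 for SLC2A1. The third GSK-J4 library and the 3 combination libraries share the GC trend given above, and removing it gave 117 genes among those with a GC value. No GC value was used for the 5 mitochondrial transcripts, so the part of the trend in their differences was not tested.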

How the results depend on the processing

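The counts depended on the processing. Cisplatin after GSK-J4 changed 379 genes; a filter on low values (11881 genes kept) gave 196 (76 raised, 120 lowered), no intensity trend 237 (129 lowered), and a fold over 1.2 with adjusted p under 0.001 gave 232 (115 lowered). Removing GC content left 128 lowered. Cisplatin alone gave 118, 113, and 110 under those 3 settings, and the difference of the effects gave 0 without the trend (limma, 2474 at an unadjusted p under 0.05, smallest adjusted p 0.0631) and 23 at the stricter threshold. The sh6A+6B count was 186 under the filter (12206 genes). For 2 settings chosen after seeing the data, the third GSK-J4 library alone gave 116 (82 raised, 34 lowered; difference 45) and GC removal without the first combination library 119 (67 and 52; difference 60). With 1 GSK-J4 library, that sample is assumed to vary like the other groups.

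Leaving out 1 library each gave 164 to 725 genes (raised 68 to 233, lowered 96 to 492), 117 to 211 for cisplatin alone, 59 to 447 for the difference, and 548 to 598 in sh6A+6B cells; the lowest and highest counts after GSK-J4 came without the first combination and the third GSK-J4 library. Correlations of deviations between libraries with the same replicate number were -0.0134, -0.0105, and -0.164 for GSK-J4 and combination. They were 0.0961, 0.124, and 0.043 for control and cisplatin. The third GSK-J4 library stood apart from its group, so the values for GSK-J4 and combination cannot show whether replicate numbers pair the samples. The replicate block gave 367 genes (152 raised, 215 lowered) and 129 for the difference, and with GC removed 122 lowered. Of 58 called genes followed, 13 of 56 lost the call with GC removed, 32 against the third GSK-J4 library alone, 25 without the first combination library, 17 without the trend, 2 with voom, and 1 (HAND1) with the block, with 0 changes of sign.

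Of genes near 0, KDM6A turned to -0.0353 with GC removed (also with the block), -0.0318 with GC removed and no first combination library, and -0.0229 against the third GSK-J4 library. KDM6B turned to 0.0988, 0.0466, and 0.1493 under the same settings, and ranged from -0.1221 to 0.0141 when 1 library was left out. POU5F1 turned to 0.0812 against the third GSK-J4 library and ranged from -0.0558 to 0.0246. The cause of these changes was not tested. Genes with few reads, such as H1-5 and H2BC18, are limited by depth.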
